A study of Mus musculus with 9 samples.

Results

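p53, encoded in the mouse by Trp53, is a transcription factor that is normally kept scarce because Mdm2, a ubiquitin ligase and itself a p53 target, marks it for destruction. When DNA is damaged or an oncogene is active, p53 is stabilized and switches on genes that stop the cell cycle, kill the cell, limit oxidative stress or restrain p53 again. Because p53 is controlled mostly at the protein level, its mRNA says little about its activity, and its targets are commonly read in its place. The 10 genes described here are Trp53 and 9 genes known as its targets. They were listed by symbol, with earlier results of these data known, from the 55401 genes of the count table. Each symbol matched a gene, and all 10 passed the filter on low counts, as did 15717 genes in all.

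RNA of whole liver was sequenced from 9 female mice, 3 in each group. Healthy livers came from mice that received neither oncogenes nor a vector. In the other 6 mice, HCC was induced by hydrodynamic injection of sleeping beauty plasmids encoding activated RAS and AKT, and 1 week later the mice received AAV8, either blank (untreated HCC) or carrying miR-22 under a CMV promoter (miR-22-treated HCC). These livers were taken 5 weeks after the oncogenes, and no harvest time is given for the healthy ones. The mice were 6 weeks old when obtained. The labels name C57BL/6 in the strain field and FVB/N in the growth protocol, the labels and the methods differ on the AAV dose, and the plasmids listed in the labels also include a β-catenin construct, although the series describes RAS/AKT livers. Hydrodynamic injection reaches a fraction of hepatocytes, so each HCC library mixes transfected tumor cells with the cells of the host liver.

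Libraries held 16664659 to 23908392 counts. Marker lists moved with the groups. In untreated HCC against healthy livers, 8 of 8 hepatocyte markers were lower, with summed normalized counts of 951316 to 1194028 against 2366556 to 2487619. All 10 proliferation markers were higher, with sums of 3756 to 4767 against 221 to 343, and 5 of 6 duct markers were higher, with sums of 64541 to 120595 against 582 to 813, most of it Spp1. In miR-22-treated HCC the hepatocyte sum was 1445655 to 1777074, the proliferation sum 2243 to 3368 and the duct sum 30333 to 52426. Of these lists, 5 of 8, 0 of 10 and 0 of 6 markers were called higher than in untreated HCC, and 0, 6 and 3 lower. By the same rule, given with the first comparison below, 8.32% of all genes were called higher with miR-22 and 5.47% lower. In untreated HCC against healthy livers these shares were 22.7% and 18.1%. Macrophage markers summed to between 7146 and 8842 in healthy, 8800 and 9796 in untreated and 10179 and 10606 in miR-22-treated livers. Endothelial sums were 6391 to 8024, 4034 to 5141 and 5355 to 6868 in that order, stellate cell and myofibroblast sums 6476 to 7905, 15637 to 18086 and 13028 to 14825, lymphocyte sums 106 to 143, 130 to 194 and 119 to 190, and neutrophil sums 34.2 to 85.4, 309 to 420 and 286 to 449. List members could move apart. In untreated HCC, 3 of 7 stellate cell and myofibroblast markers were called higher than in healthy livers and 2 lower. Mean normalized counts in healthy and untreated livers were 112 and 3734 for Col1a1 and 847 and 7815 for Col3a1. Those of Lrat were 817 and 291, and those of Dcn 2947 and 1934. Of 7 macrophage markers, 2 were called higher and 0 lower, with means of 950 and 2627 for Lyz2 and 3253 and 2446 for Clec4f. Only neutrophil markers held at most 3 counts in every library of a group, namely Ly6g in all groups and Mmp8 and Retnlg in healthy livers. The part of cell composition and proliferation in the values below was not tested. In whole liver, more cells that express a gene and more RNA per cell cannot be told apart.

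p53 binds a 20-base site made of 2 adjoining 10-base repeats, each with a C and a G around a central pair. On GRCm39, the 2500 bases on each side of the start of each gene's canonical transcript were searched for the p53 consensus site with at most 2 mismatches and no spacer between the repeats. The consensus is its own reverse complement, so a match lies on both strands. Matches were found in 5 of the 10 genes. At most 1 mismatch was reached in 4 of them (40%), against 1.36% of the 21768 protein-coding genes, and at most 2 in 5 of them (50%) against 15.2%. The 43 other p53 targets described below reached 4.65% and 30.2% at these limits. Because the genes were picked as p53 targets, this is a description of the list and no test was made. The sequences of 6 of the 7 matches follow, to show how they compare with one another. They are written on the gene's own strand, with the 4 central bases of each repeat in capitals.

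Zmat3 (intron 1, 0 mismatches, chr3:32418480-32418499): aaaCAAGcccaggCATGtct
Ccng1 (intron 1, 1 mismatch, chr11:40645763-40645782): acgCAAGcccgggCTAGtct
Eda2r (intron 1, 1 mismatch, chrX:96420297-96420316): gaaTATGcccggaCTTGtcc
Mdm2 (922 bases upstream, 1 mismatch, chr10:117547575-117547594): gggCAATtccgggCAAGtcc
Eda2r (intron 1, 2 mismatches, chrX:96420140-96420159): gggCAAGtccgggCCTGtgt
Perp (1924 bases upstream, 2 mismatches, chr10:18718782-18718801): attCTAGcccaggCTTGccc

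No match at this limit lay in the windows of Trp53, Phlda3, Trp53inp1, Sesn2 or Aen, which says only that the letters are not in these windows.

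**Figure D1:**
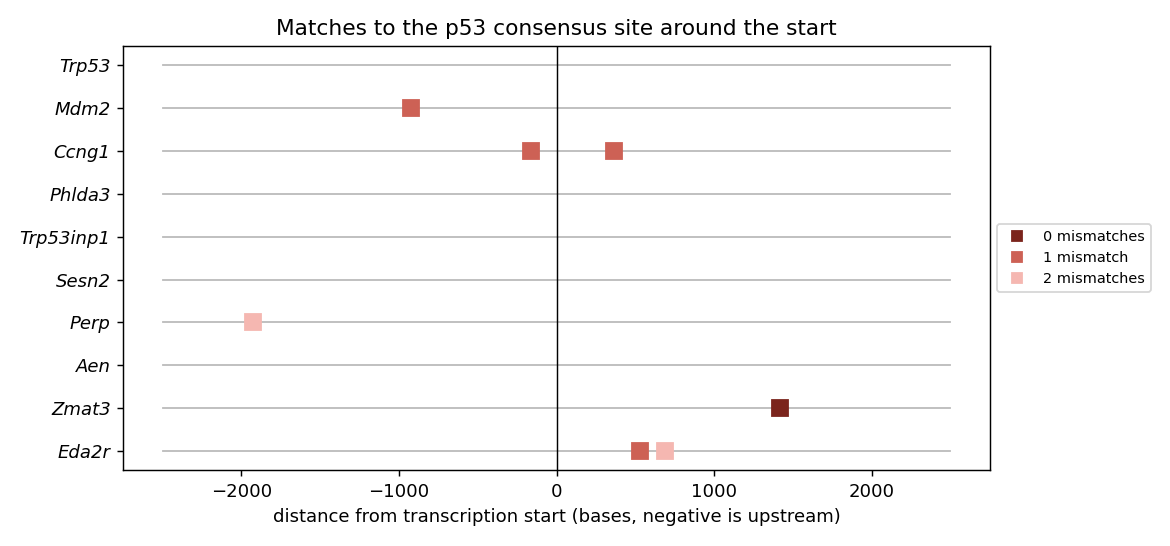
Position of each match to the p53 consensus site (squares, shaded by the number of mismatches) along the window around the start of each gene. The horizontal axis is the distance from the canonical transcription start in bases, with upstream to the left. Ccng1 and Eda2r carry 2 matches each, and the match without a mismatch lies 1418 bases downstream of the start of Zmat3.

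miR-22 acts through its seed, the bases near its 5′ end that pair with 3′ UTRs. Its mature strand from RefSeq is shown with the seed, bases 2 to 8, in capitals. Below it stand the matches to that seed (GGCAGCT, in capitals) in the canonical 3′ UTRs of the 10 genes.

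miR-22-3p: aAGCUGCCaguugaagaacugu
Mdm2, base 1197 of 1335: gcagcctgGGCAGCTtcagtccc
Trp53inp1, base 3718 of 5271: cagaggaaGGCAGCTtaaatgga
Trp53inp1, base 4160 of 5271: gcataaatGGCAGCTtgttttct

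The other 8 genes held none. A match in 2 of 10 genes (20%) compares with 14.0% of 20854 protein-coding genes, whose 3′ UTRs had a median of 1083 bases against 2004 for these 10.

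The first comparison asked how the 10 genes differ between RAS/AKT-induced HCC and healthy liver. In untreated HCC, 9 of the 10 were called higher and 0 lower, and Perp was not called. A gene was called when edgeR's quasi-likelihood test gave a Benjamini-Hochberg adjusted p under 0.05 over all genes tested and the fold change exceeded 1.5. By the same rule 22.7% of all genes tested were called higher and 18.1% lower. The median log2 fold change of the 10 was 1.28, from 0.13 to 5.50, against 0.01 over all genes. The groups did not overlap for 8 of the 10, against 65.3% of all genes.

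The second comparison asked what miR-22 treatment changed in HCC. Here 5 of the 10 genes were called lower with miR-22 (Trp53, Phlda3, Aen, Zmat3 and Eda2r) and 0 higher, against 5.47% of all genes lower and 8.32% higher. The median log2 fold change was −0.49, from −1.02 to 0.42, against 0.00 over all genes, and the groups did not overlap for 6 of the 10, against 39.3% of all genes. The count rested on single livers: it was 2 (Phlda3 and Zmat3) without miR-22-treated replicate 3 and 3 (Phlda3, Aen and Zmat3) without untreated replicate 3. Against healthy livers, miR-22-treated HCC still had 9 genes called higher and 0 lower, where 16.9% of all genes were higher and 7.05% lower. The median was then 0.99, and all 10 genes were without overlap, against 48.8% of all genes. Each pair of these comparisons shares a group of livers, so they are not independent.

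**Figure D2:**
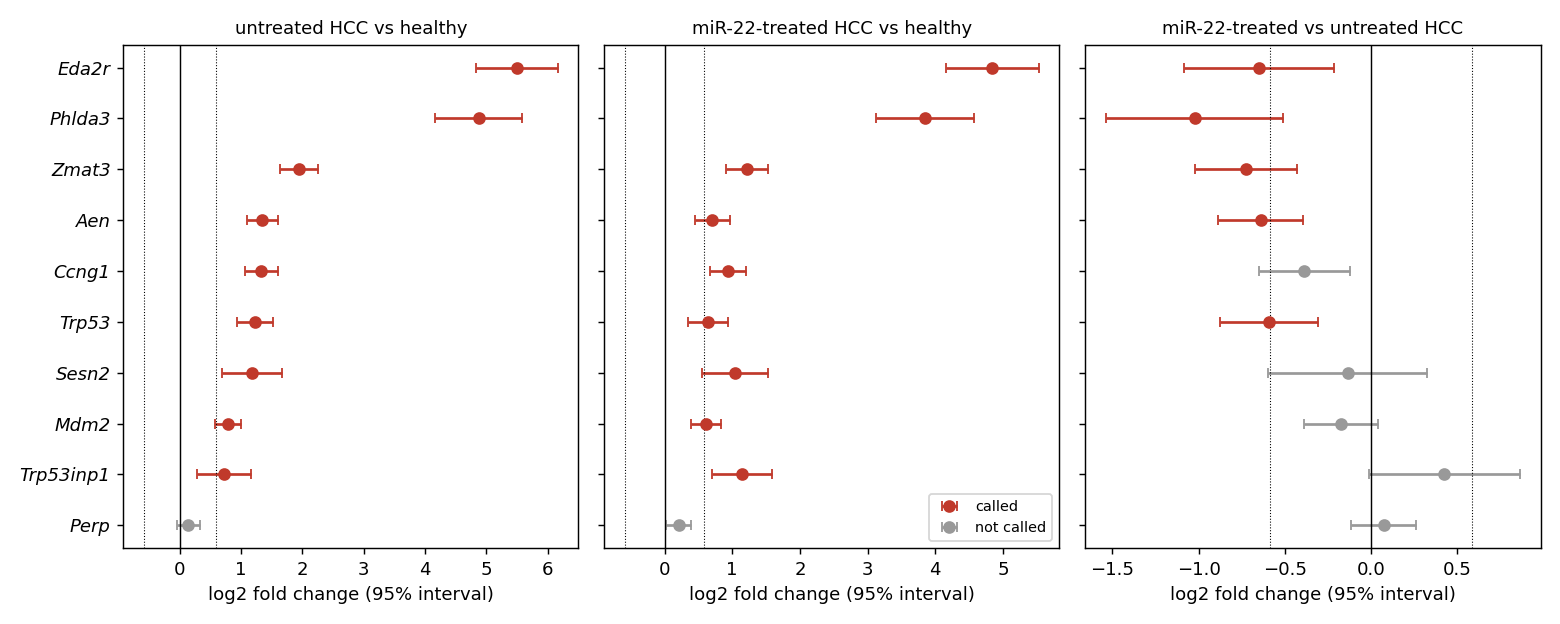
log2 fold change (horizontal axis) of each of the 10 genes in the 3 comparisons, with 95% intervals from the edgeR fit. Red points were called, grey points were not, and dotted lines mark a fold change of 1.5. Eda2r and Phlda3 stand far to the right in both comparisons with healthy liver, and 5 genes lie left of the line for a 1.5-fold fall with miR-22.

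Trp53 (ENSMUSG00000059552.13, chr11:69469669-69482701) had 379, 330 and 388 normalized counts in healthy livers, 810, 956 and 811 in untreated HCC, and 574, 463 and 669 in miR-22-treated HCC. None of the 3 groups overlapped, and miR-22-treated livers lay between the others. The mean was 366 ± 31.3 (SD, n = 3) in healthy livers, 859 ± 83.8 in untreated HCC and 568 ± 103 with miR-22. Trp53 was thus 2.35-fold higher in untreated HCC (log2 fold change 1.23, SE 0.135, adjusted p = 7.3e-06). With miR-22 it was lower by a log2 fold change of −0.59 (SE 0.131, adjusted p = 0.0068), a 1.51-fold fall that only just passed the fold threshold and was −0.47 without miR-22-treated replicate 3 and −0.51 without untreated replicate 3, both under that threshold. Compared with healthy liver it remained higher in miR-22-treated HCC, by 0.64 (SE 0.136, adjusted p = 0.0029), and this fell under the fold threshold, at 0.56 without healthy replicate 2 and 0.50 without miR-22-treated replicate 4. The libraries do not keep strand, and Trp53 shares 263 exon bases with Wrap53 on the opposite strand. Wrap53 had 1169 counts over all 9 libraries and log2 fold changes of −0.38 in untreated HCC and 0.01 with miR-22, neither called. The pseudogene Trp53-ps had 0 counts in all libraries.

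Mdm2 and Ccng1 belong to the feedback arm: Mdm2 degrades p53, and cyclin G1, the product of Ccng1, recruits a phosphatase that activates Mdm2. Mdm2 (ENSMUSG00000020184.15, chr10:117524780-117546730) had 793, 628 and 684 normalized counts in healthy livers, 1278, 1225 and 1126 in untreated HCC, and 999, 1121 and 1094 with miR-22. Every HCC liver exceeded every healthy one, while the treated and untreated livers nearly touched. It was 1.72-fold higher in untreated HCC (log2 fold change 0.79, SE 0.100, adjusted p = 2.6e-05). Between treated and untreated HCC the log2 fold change was −0.18 (95% interval −0.39 to 0.04, adjusted p = 0.22), so a fall of more than 1.5-fold lay outside the interval. Mdm2 carries a miR-22 seed match, and whether miR-22 acts on it was not tested. Against healthy liver the treated group was higher by 0.61 (SE 0.101, adjusted p = 5.5e-04), close enough to the fold threshold that several alternatives did not call it. These were DESeq2 (0.58), DESeq2 size factors in edgeR (0.58) and the fits without healthy replicate 2 (0.53), healthy replicate 3 (0.58) or miR-22-treated replicate 3 (0.58).

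Ccng1 (ENSMUSG00000020326.7, chr11:40639377-40646148) had 748, 865 and 823 normalized counts in healthy livers, 2253, 2174 and 1683 in untreated HCC, and 1405, 1500 and 1763 with miR-22. The healthy livers stood apart, and the 2 HCC groups overlapped. Ccng1 was 2.51-fold higher in untreated HCC (log2 fold change 1.33, SE 0.125, adjusted p = 2.1e-06) and higher by 0.94 in treated HCC than in healthy liver (SE 0.124, adjusted p = 1.1e-04). With miR-22 the log2 fold change was −0.39 (SE 0.121, adjusted p = 0.035), past the p threshold but under the fold threshold, and so not called. Ccng1 shares 114 exon bases with Nudcd2 on the opposite strand, which had 5867 counts in all and log2 fold changes of 0.46 in untreated HCC and −0.14 with miR-22, neither called.

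Phlda3 and Eda2r showed the largest differences from healthy liver among the 10. Phlda3 is a pleckstrin homology protein that competes with AKT for membrane lipids and so restrains AKT at the membrane. Phlda3 (ENSMUSG00000041801.5, chr1:135693809-135697686) had 17.1, 15.9 and 12.8 normalized counts in healthy livers, 408, 603 and 333 in untreated HCC, and 202, 158 and 296 with miR-22. No group overlapped another. It was 29.3-fold higher in untreated HCC (log2 fold change 4.87, SE 0.328, adjusted p = 1.6e-07). With miR-22 it fell by 1.02 on the log2 scale (SE 0.237, adjusted p = 0.0084), 2.03-fold and the largest fall of the 10, yet it stayed 14.4-fold above healthy liver (3.85, SE 0.336, adjusted p = 3.7e-06).

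Eda2r encodes a receptor of the TNF receptor superfamily that binds ectodysplasin A2. Eda2r (ENSMUSG00000034457.10, chrX:96320270-96420847) was near the limit of detection in healthy livers, with 3, 6 and 6 counts. After normalization these were 3.66, 7.33 and 6.40, against 245, 294 and 265 in untreated HCC and 123, 166 and 221 with miR-22. Its fold change in untreated HCC, 45.1 (log2 5.50, SE 0.308, adjusted p = 4.5e-08), rests on those few healthy counts. The fall with miR-22 was 1.57-fold (log2 fold change −0.65, SE 0.200, adjusted p = 0.033), with no overlap between the groups. That call was lost when any of 5 livers was left out: untreated replicate 2, 3 or 4 gave −0.71, −0.58 and −0.66, and miR-22-treated replicate 2 or 3 gave −0.47 and −0.63. Treated HCC remained above healthy liver by 4.85 (SE 0.316, adjusted p = 3.6e-07).

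**Figure D3:**
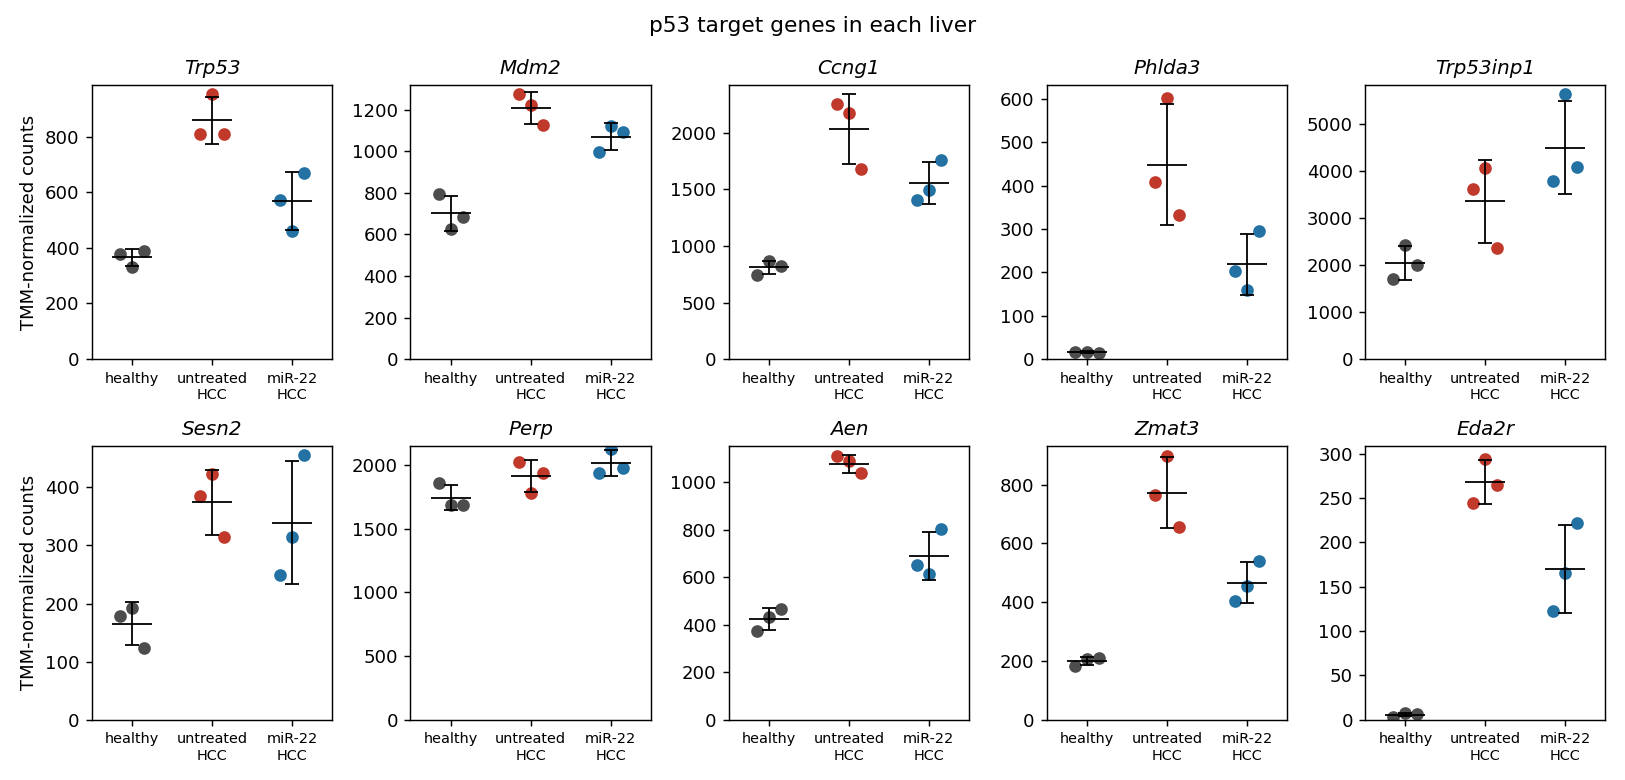
TMM-normalized counts (vertical axis, from 0, with its own scale in each panel) of the 10 genes in each of the 9 livers. Each dot is a liver, the long bar is the mean of the group and the whiskers are the SD over 3 livers. Phlda3 and Eda2r lie near 0 in healthy livers, the means of Perp differ by the smallest ratio between groups, and Trp53inp1 has its highest mean with miR-22.

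Zmat3, Aen and Perp are targets tied to cell death and RNA or DNA handling. Zmat3 is a zinc finger protein that binds RNA and regulates splicing. Zmat3 (ENSMUSG00000027663.12, chr3:32388941-32420163), which carries the p53 site without a mismatch, had 184, 208 and 210 normalized counts in healthy livers, 765, 897 and 657 in untreated HCC, and 403, 457 and 541 with miR-22. The groups were fully separate. It was 3.84-fold higher in untreated HCC (log2 fold change 1.94, SE 0.145, adjusted p = 3.3e-07), 1.65-fold lower with miR-22 than without (−0.72, SE 0.136, adjusted p = 0.0028), and higher than in healthy liver after treatment by 1.22 (SE 0.145, adjusted p = 4.6e-05).

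Aen is a nuclease that enhances apoptosis. Aen (ENSMUSG00000030609.18, chr7:78545602-78560957) had 372, 434 and 467 normalized counts in healthy livers, 1112, 1089 and 1038 in untreated HCC, and 654, 615 and 806 with miR-22, again without overlap. In untreated HCC it was 2.54-fold higher (log2 fold change 1.35, SE 0.118, adjusted p = 1.2e-06). It was 1.56-fold lower with miR-22 (−0.64, SE 0.114, adjusted p = 0.0021), and without miR-22-treated replicate 3 the value was −0.56, under the fold threshold. Over healthy liver it stayed higher by 0.71 (SE 0.118, adjusted p = 6.2e-04), a value that lost its call without miR-22-treated replicate 4 (0.58). Aen shares 1214 exon bases, Mdm2 348 and Trp53 156 with antisense lncRNAs of GENCODE M39 whose counts were not analysed here.

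Perp, a tetraspan membrane protein of desmosomes that also promotes apoptosis, was the exception. Perp (ENSMUSG00000019851.8, chr10:18720715-18732821) had 1862, 1687 and 1689 normalized counts in healthy livers, 2028, 1783 and 1936 in untreated HCC, and 1939, 2129 and 1981 with miR-22. Healthy and untreated livers overlapped, as did untreated and treated ones. The log2 fold change was 0.13 in untreated HCC (95% interval −0.05 to 0.32, adjusted p = 0.21), 0.07 with miR-22 (−0.11 to 0.26, adjusted p = 0.59) and 0.21 between treated HCC and healthy liver (0.02 to 0.40, adjusted p = 0.080). All 3 intervals exclude a 1.5-fold change in either direction.

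Trp53inp1 and Sesn2 act in stress defence: Trp53inp1 supports autophagy and p53 phosphorylation, and sestrin 2, from Sesn2, limits oxidative stress and restrains mTORC1. Trp53inp1 (ENSMUSG00000028211.11, chr4:11156412-11175230) had 1709, 2429 and 1993 normalized counts in healthy livers, 3629, 4076 and 2365 in untreated HCC, and 3788, 5642 and 4084 with miR-22. One untreated liver, replicate 4, lay within the healthy range, and untreated and treated livers overlapped. It was 1.64-fold higher in untreated HCC (log2 fold change 0.72, SE 0.204, adjusted p = 0.0093), a call lost without healthy replicate 1 (0.59) or untreated replicate 3 (0.55). With miR-22 the estimate was upward, 0.42 (95% interval −0.01 to 0.86, adjusted p = 0.15), and not called. The interval excludes a fall of 1.5-fold. Trp53inp1 carries 2 of the 3 miR-22 seed matches, and whether miR-22 acts on them was not tested. Treated HCC was 2.20-fold above healthy liver (1.14, SE 0.205, adjusted p = 9.9e-04).

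Sesn2 (ENSMUSG00000028893.8, chr4:132219335-132237815) had 179, 193 and 124 normalized counts in healthy livers, 385, 423 and 314 in untreated HCC, and 249, 314 and 455 with miR-22. The treated livers spanned a range wider than that of the untreated ones. Sesn2 was 2.27-fold higher in untreated HCC (log2 fold change 1.18, SE 0.224, adjusted p = 6.2e-04) and 2.06-fold higher in treated HCC than in healthy liver (1.05, SE 0.225, adjusted p = 0.0031). With miR-22 the log2 fold change was −0.13, and its interval, −0.60 to 0.33, leaves a 1.5-fold fall possible (adjusted p = 0.69).

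Within each group, some livers were high or low for several of these genes. The 3 healthy livers were the highest for 3, 4 and 3 of the 10 and the lowest for 5, 3 and 2. Of the treated livers, replicate 4 was the highest for 7 of the 10 genes and replicate 2 the lowest for 7. Replicate 4 also had the highest proliferation sum, 3368, and the lowest hepatocyte sum, 1445655, whereas both sums of replicate 2, 2742 and 1622078, were the middle ones of the group. Of the untreated livers, replicate 3 was the highest for 6 genes and replicate 4 the lowest for 7, and their proliferation sums were 4767 and 3756. The part of these marker levels in the spread of the 10 genes was not tested.

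Per length, as RPKM on the length of the canonical transcript, Perp had the highest level of the 10 in every group, with 44.9 ± 2.59 (SD, n = 3) in healthy livers, 49.3 ± 3.18 in untreated HCC and 51.8 ± 2.57 with miR-22. In healthy livers it was followed by Trp53inp1 with 16.8 ± 2.98, and Ccng1, Mdm2 and Trp53 came next with 11.9 ± 0.876, 11.7 ± 1.39 and 10.2 ± 0.871, where the range of Mdm2 overlaps those of the other two, which are apart. Sesn2 (2.44 ± 0.544), Aen (1.96 ± 0.222), Zmat3 (1.31 ± 0.0937), Phlda3 (0.343 ± 0.0497) and Eda2r (0.0626 ± 0.0206) were lower, and only the ranges of Sesn2 and Aen overlapped among them. In untreated HCC the order below Perp was Ccng1 (29.9 ± 4.53), Trp53inp1 (27.6 ± 7.29), Trp53 (23.9 ± 2.33) and Mdm2 (20.1 ± 1.28). The range of Mdm2 overlaps that of Trp53inp1 but lies below those of Trp53 and Ccng1, which overlap each other and Trp53inp1. Phlda3 followed with 10.1 ± 3.12, above Sesn2 (5.53 ± 0.821), Zmat3 (5.05 ± 0.786) and Aen (4.98 ± 0.175), whose ranges overlap, and Eda2r stayed lowest with 2.90 ± 0.271. With miR-22, Trp53inp1 was second with 37.0 ± 8.18, ahead of Ccng1 (22.8 ± 2.72), Mdm2 (17.8 ± 1.07) and Trp53 (15.8 ± 2.88), of which the ranges of Mdm2 and Trp53 overlap. Sesn2 (5.02 ± 1.56), Phlda3 (4.92 ± 1.58), Aen (3.19 ± 0.465) and Zmat3 (3.05 ± 0.455) followed, with ranges that overlap between neighbours in this order, and Eda2r was last with 1.84 ± 0.533. The long canonical transcript of Aen, 11171 bases, lowers its level on this scale.

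The 10 genes are a small part of the p53 program. A list of 43 other targets, all of which passed the filter, gave 21 genes called higher and 6 lower in untreated HCC, with a median log2 fold change of 0.55. With miR-22, 4 of the 43 were higher and 8 lower than in untreated HCC (median −0.18), and against healthy liver 18 were higher and 4 lower (median 0.40). The background shares are those given above.

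Among the arrest genes, Cdkn1a, which encodes the cyclin-dependent kinase inhibitor p21, had 28.1, 13.4 and 36.2 normalized counts in healthy livers, 2226, 2055 and 1597 in untreated HCC, and 694, 1054 and 1340 with miR-22. The groups did not overlap. Its log2 fold change was 6.21 in untreated HCC (SE 0.311, adjusted p = 2.2e-08), −0.93 with miR-22 (SE 0.215, adjusted p = 0.0086) and 5.29 between treated HCC and healthy liver (SE 0.311, adjusted p = 1.6e-07). Of the 7 arrest genes, 4 were higher and 1 lower in untreated HCC, where 22.7% and 18.1% of all genes were. With miR-22, 1 was higher and 2 lower, where 8.32% and 5.47% of all genes were. Plk3, a polo-like kinase of the stress response, was the one that rose with miR-22, by 1.23 (SE 0.143, adjusted p = 2.1e-04).

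Of 11 apoptosis genes, 7 were called higher and 0 lower in untreated HCC, where 22.7% and 18.1% of all genes were. With miR-22, 0 were higher and 2 lower, where 8.32% and 5.47% of all genes were. The death receptor gene Tnfrsf10b was higher by 4.56 in untreated HCC (SE 0.277, adjusted p = 7.4e-08) and lower by a log2 fold change of −0.87 with miR-22 (SE 0.203, adjusted p = 0.0089), a call lost without untreated replicate 3 (−0.74, adjusted p = 0.053). Tnfrsf12a, the receptor of the cytokine TWEAK, had values of 4.55 (SE 0.201, adjusted p = 9.5e-09) and −0.99 (SE 0.162, adjusted p = 0.0013). The pore-forming protein gene Bax rose by 1.64 in untreated HCC (SE 0.139, adjusted p = 9.5e-07), and its value with miR-22, −0.58 (SE 0.133, adjusted p = 0.0082), was just under the fold threshold. Bax passed it with DESeq2 (−0.61), DESeq2 size factors (−0.60), upper-quartile factors (−0.62), at least 10 counts in every library (−0.59), and without untreated replicate 4 (−0.67) or miR-22-treated replicate 4 (−0.73). Pmaip1, which encodes the BH3-only protein Noxa, rose by 2.58 in untreated HCC (SE 0.407, adjusted p = 1.5e-04) and had a value of −0.32 with miR-22 (adjusted p = 0.55). Neither of 2 other death genes was called higher: Bbc3, for the BH3-only protein Puma, had −0.36 in untreated HCC (adjusted p = 0.19, but called lower at −0.59 without healthy replicate 3), and Fas had −0.18 (adjusted p = 0.20), followed by 0.57 with miR-22 (adjusted p = 0.0042, under the fold threshold, but past it at 0.65 without untreated replicate 2 and 0.60 without miR-22-treated replicate 3). In treated HCC against healthy liver, Bbc3 was called lower at −0.69 (SE 0.231, adjusted p = 0.034), a call lost without healthy replicate 1 (−0.45) or 2 (−0.70) and without miR-22-treated replicate 2 (−0.63) or 3 (−0.62).

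Of 8 metabolic and redox targets, 2 were called higher and 5 lower in untreated HCC, where 22.7% and 18.1% of all genes were, and 3 were higher and 1 lower with miR-22, where 8.32% and 5.47% were. The difference from the other target groups was not tested. Gls2, the liver glutaminase, had 7728, 8396 and 7496 normalized counts in healthy livers, 1335, 1300 and 1827 in untreated HCC, and 4351, 4386 and 2653 with miR-22. It was lower by a log2 fold change of −2.40 in untreated HCC (SE 0.191, adjusted p = 5.6e-07) and higher by 1.35 with miR-22 (SE 0.185, adjusted p = 5.3e-04). Sesn1, the sestrin paralog of Sesn2, fell by 0.89 in untreated HCC (SE 0.124, adjusted p = 5.6e-05), whereas Sesn2 rose. Tigar, a phosphatase that diverts sugar from glycolysis, rose by 0.94 (SE 0.153, adjusted p = 1.9e-04) and fell by 0.63 with miR-22 (SE 0.150, adjusted p = 0.010), a call lost without untreated replicate 2 (−0.51) or miR-22-treated replicate 3 (−0.52).

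Of 6 DNA repair targets, 2 were called higher and 0 lower in untreated HCC and 0 in either direction with miR-22, and nothing particular to repair genes is read from so few against the shares over all genes. Ddb2, a damage sensor of nucleotide excision repair, had −0.45 (adjusted p = 0.057) and 0.39 (adjusted p = 0.15). Of 11 feedback and secreted targets, 6 were higher and 0 lower in untreated HCC, where 22.7% and 18.1% of all genes were. With miR-22, 0 were higher and 3 lower, where 8.32% and 5.47% of all genes were. The stress cytokine gene Gdf15 rose by 2.73 in untreated HCC (SE 0.484, adjusted p = 3.7e-04), or by 4.15 without healthy replicate 1, which held 141 normalized counts against 19.6 and 25.6 in the other healthy livers, with a value of −0.18 for miR-22 (adjusted p = 0.80). Thbs1, for the matrix protein thrombospondin 1, had 5.86 (SE 0.292, adjusted p = 2.1e-08) and −1.47 (SE 0.205, adjusted p = 5.9e-04). Ppm1d, a phosphatase that switches p53 signaling off, had 0.09 and 0.23 (adjusted p = 0.63 and 0.31).

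**Figure D4:**
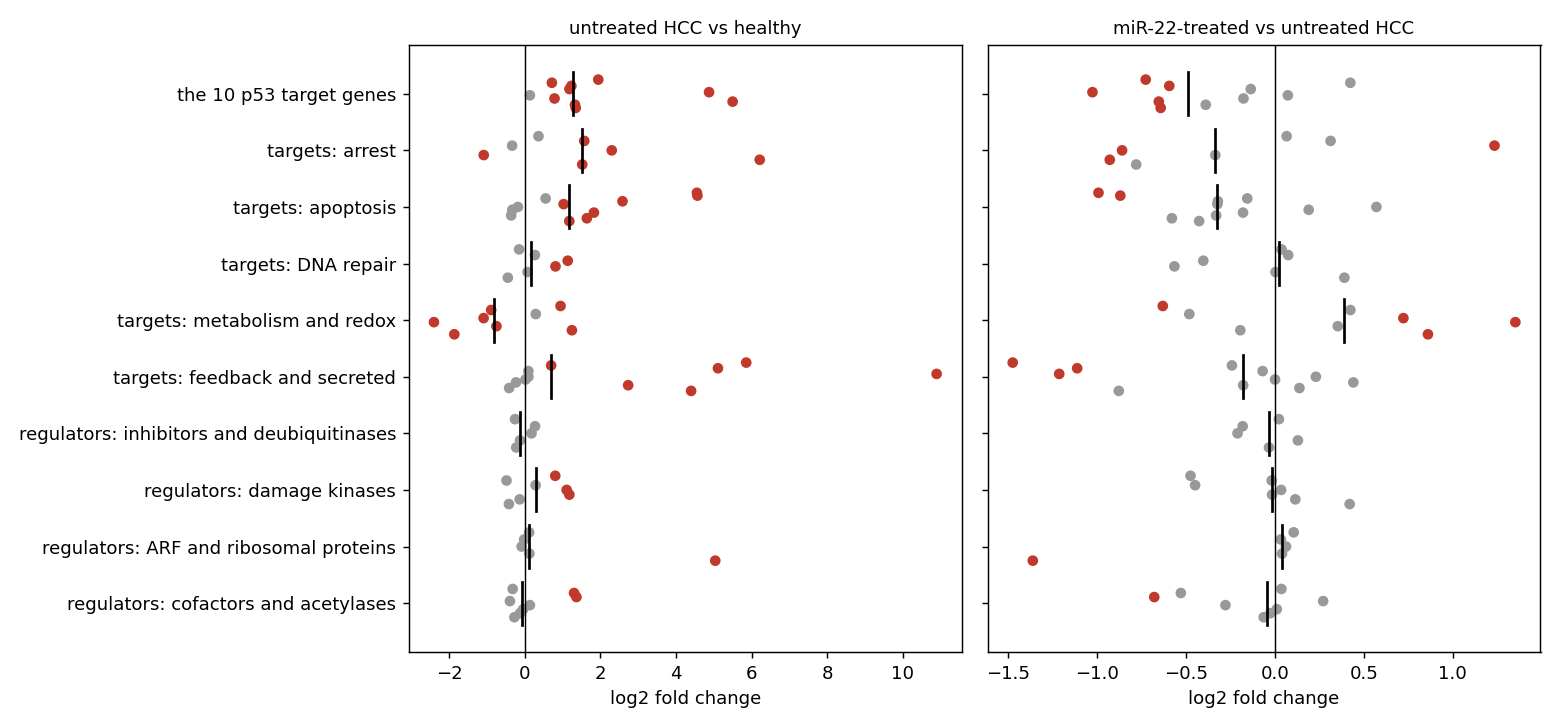
log2 fold change (horizontal axis) of the 10 genes, of the 43 other p53 targets by role and of 25 p53 regulators, in untreated HCC against healthy liver and in miR-22-treated against untreated HCC. Each dot is a gene, red if called and grey if not, and the black bar is the median of the list. The dot farthest to the right is Psrc1, which had 0, 0 and 1 counts in healthy livers, so that its position is set by the fit and measures no fold change.

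Genes that act on p53 itself were listed apart. Of 28 regulators listed, 25 passed the filter, 6 were called higher and 0 lower in untreated HCC (median −0.02), 0 higher and 2 lower with miR-22 (median −0.01), and 5 higher and 0 lower in treated HCC against healthy liver (median −0.02). Over all genes 22.7% were called higher in untreated HCC, 5.47% lower with miR-22 and 16.9% higher in treated HCC than in healthy liver, so these 3 counts of regulators lay near the background. The 0 called lower in untreated HCC stand beside 18.1% of all genes, and the 0 called higher with miR-22 beside 8.32%. Both counts of 0 rest on the fold threshold, as Atm, given next, passed the p threshold in both comparisons. Mdm4, the partner of Mdm2 in restraining p53, had log2 fold changes of −0.13 in untreated HCC and 0.13 with miR-22 (adjusted p = 0.20 and 0.28), and the kinase gene Atm had −0.42 and 0.42 (adjusted p = 0.022 and 0.046), both under the fold threshold. The checkpoint kinase genes Chek1 and Chek2 were higher in untreated HCC by 1.18 (SE 0.363, adjusted p = 0.014) and 1.11 (SE 0.233, adjusted p = 0.0013). The value for Chek1 was 1.84 without healthy replicate 3, and its call was lost without healthy replicate 1 (0.87), healthy replicate 2 (1.00) or untreated replicate 3 (1.04). Ppp1r13b, for the p53 cofactor ASPP1, was higher by 1.36 in untreated HCC (SE 0.140, adjusted p = 4.2e-06) and lower by a log2 fold change of −0.68 with miR-22 (SE 0.135, adjusted p = 0.0040), which was −0.55 and not called without untreated replicate 3. Trp53bp1, for a DNA damage response protein that binds p53, was higher by 0.80 in untreated HCC (SE 0.103, adjusted p = 2.8e-05).

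Cdkn2a, the locus of Arf, which frees p53 by blocking Mdm2, had 2, 4 and 0 counts in healthy livers, 94, 125 and 68 in untreated HCC and 20, 25 and 44 with miR-22. Counts per gene do not separate Arf from p16, the other product of the locus. Between treated and untreated HCC the log2 fold change was −1.36 (SE 0.401, adjusted p = 0.028), and the call was lost without untreated replicate 2 (−1.32) or 3 (−1.09) and without miR-22-treated replicate 2 (−1.17) or 3 (−1.35). The p53 relatives Trp63 and Trp73 did not pass the filter, with 5 and 0 counts over all 9 libraries.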

How the data were processed

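RNA of 9 whole mouse livers, 3 per group, was sequenced as unstranded paired reads. The authors quantified reads with Salmon, imported them per gene with tximport and deposited whole-number counts, neither normalized nor filtered, for 55401 genes. The genome is stated as GRCm39 and the annotation as GENCODE release 25, and 93.4% of the gene IDs were found in GENCODE M39, used here for positions and lengths. The deposited signal values are counts divided by a DESeq2 size factor and returned the counts for 100% of values within 0.05 counts, so only counts were tested.

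Counts were tested in R 4.3.3 with edgeR 4.0.16 (filterByExpr, TMM, two-sided quasi-likelihood F test, all 9 libraries, 3 groups, no covariates). Genes were called by the study's thresholds, a fold change over 1.5 with an adjusted p under 0.05. Normalized counts are scaled to 19401057 counts. All adjusted p-values are edgeR's and, in the main fit, over 15717 genes. They test group differences against a spread estimated from these livers. An adjusted p quoted for a fit without 1 liver is from that refit, filtered anew. The fit was tested on simulated data. Sites were searched on GRCm39, where the sequence of 1 match is not reported here, and 3′ UTRs taken from canonical transcripts. The miR-22 sequence comes from the RefSeq table. The 10 genes and the lists were chosen with earlier results of these data known. Named from the lists were fixed genes, whatever they showed, and up to 3 called genes of smallest p per list and comparison. Psrc1 was named after its values were seen. Of the regulators, 1 symbol was not matched to the table.

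Alternatives were DESeq2 1.42.0, DESeq2 size factors, upper-quartile factors, no filter, at least 10 counts in every library, a fit to only the groups compared, a block for replicate number, each liver left out, and no fold threshold.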

Additional observations from a re-analysis of the deposited data

How the results depend on the processing

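No alternative turned the direction of a called value. Of the recomputed counts of called genes, 142 stayed within 1.5 times their value and 11 did not. With miR-22, 5 of the 10 genes were called lower in the full set and 2 to 5 with 1 liver left out at a time. Among regulators, dropping the fold threshold gave 12 called in untreated HCC in place of 6, 5 with miR-22 in place of 2, and 9 in treated HCC against healthy liver in place of 5. Without that threshold 56.2%, 24% and 36.5% of all genes were called in these comparisons. The 2 regulators lower with miR-22 became 1 with at least 10 counts in every library, a filter that Cdkn2a did not pass, and 0 to 3 when single livers were left out. That filter also removed Eda2r, which left 4 of the 10 genes called lower with miR-22. Untreated and treated livers carry the same replicate numbers, but same-numbered livers deviated from their group means with correlations across genes of −0.24 to −0.12 (3 pairs), and differently numbered ones with −0.014 to 0.13 (6 pairs), so the numbers were not taken to pair the livers. With the replicate number as a block the 10 genes again gave 5 called lower with miR-22, and regulators gave 1 in place of 2 with miR-22 and 3 in place of 5 in treated HCC against healthy liver, and the calls of Aen (0.57) and Chek1 (0.89) in treated HCC, of Chek1 in untreated HCC (0.91), of Bbc3 in treated HCC (−0.44) and of Cdkn2a with miR-22 (−1.32) were lost. Under the block Gdf15 had 4.25 in untreated and 4.08 in treated HCC against healthy liver, and Bax was called lower with miR-22 (−0.59). Where not stated, the cause of a change was not tested. Low counts in healthy livers limit the precision of the values of Eda2r and Cdkn2a. Healthy counts were also low for Phlda3 (14, 13 and 12), Tnfrsf10b (15, 9 and 10), Pmaip1 (14, 16 and 9) and Thbs1 (15, 17 and 13).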
